A study of Mus musculus with 18 samples.

Results

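The diet by serine interaction asks whether the difference between high-fat diet and control diet was the same with and without serine in the diet. It is the high-fat minus control difference of the serine-present arm less that of the serine-free arm, over all 18 libraries of 18 in the series. The groups were control diet (CD, n = 3), high-fat diet (HFD, n = 5), serine-free CD (n = 5) and serine-free HFD (n = 5). All 18 were labelled as wild-type mouse colon tumor, and the extraction protocol names organoids, whereas the series' design text speaks of flow-sorted cells and single-cell sequencing; which cells the libraries held is not settled by the sources used here. No label used here states strain, age, sex or how the tumors arose. The labels do not say that replicates came from separate animals, so each p-value measures the spread between libraries, which may be technical. The serine-present libraries carry 1 series of library names and the serine-free ones another, so serine supply and library series cannot be told apart.

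Serine is an amino acid that cells take up or make from a glycolysis intermediate through Phgdh, Psat1 and Psph. It feeds one-carbon metabolism, which supplies nucleotide synthesis, and serine palmitoyltransferase joins it to palmitoyl-CoA in the first step of sphingolipid and ceramide synthesis. A high-fat diet supplies the other substrate of that step, and in the intestine such diets are known for changing stem cell and progenitor behaviour.

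The deposited rows of the 8 serine-present columns did not match the gene names beside them. As deposited, their summed counts correlated with those of the serine-free columns at r = 0.028 over all rows, and Actb, Gapdh and Epcam, a cytoskeletal, a glycolytic and an epithelial gene, were at 0 in all 8. After the columns were put in alphabetical order of gene name, r was 0.958, and Actb had 8005 to 40557 counts in these libraries. Of 109 blocks of 500 rows, 107 correlated above 0.5 (median 0.899), and rows of the other 2 were left out. In 3 windows of 50 rows a shift of 2 rows matched better, so their genes are not named. Epcam, the defining epithelial marker of the labelled tissue, had 106 to 5042 counts in all 18 libraries.

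Totals ran from 499774 to 12841275 counts per library, and 3 were under 1000000: serine-free CD replicates 1 and 5 and serine-free HFD replicate 5. Ribosomal RNA rows took 0.562% to 2.68% of counts with serine and 2.08% to 21.99% without it. Between libraries of 1 group, the median absolute log2 difference per gene was 0.931 in serine-free CD and 0.25 to 0.472 in the other 3 groups. Xist, expressed from the inactive X chromosome, had 28 and 17 counts in CD replicates 1 and 2 and at least 165 in every other library. Ddx3y, a gene of the Y chromosome, had 1 and 2 counts in the same CD replicates and 0 to 6 in the other libraries. The low Xist counts therefore came without a matching rise of Ddx3y, and the sex of the mice was not tested.

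Across 12824 genes tested with edgeR's quasi-likelihood test, 29 passed an adjusted p of 0.05 for the interaction (0.226%), 12 positive (0.0936%) and 17 negative (0.133%); 1540 had an unadjusted p under that value. The excess of negative calls did not hold with other tools on the same 18 libraries: DESeq2 called 190 positive and 93 negative, and limma-voom 360 and 218. A negative value means that HFD minus CD was lower with serine than without it. The 28 that can be named include Postn, Ereg and Lif, which encode secreted proteins, among the negative ones, and Zg16 of the goblet list with Mptx1 and Sycn of the Paneth list among the positive ones. For the 2 arms within the same fit of 18 libraries, 4 genes were called for HFD minus CD with serine (0.0312%) and 128 for serine-free HFD minus serine-free CD (0.998%), 27 of them higher in HFD (0.211%) and 101 lower (0.788%). Fits of only the libraries compared gave 452 and 38, which turns the order of the arms around, and leaving out 1 library gave 1 to 20 and 17 to 345, the lowest of the latter without serine-free HFD replicate 4. The count of 29 rests on few libraries: it was 3 without CD replicate 2, 7 without CD replicate 1, 67 without CD replicate 3 and 77 without serine-free CD replicate 1. It was 9, 9, 10 and 11 without HFD replicates 1 to 4, 17 without serine-free CD replicate 5, and 19, 13 and 19 without serine-free HFD replicates 3 to 5.

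**Figure D1:**
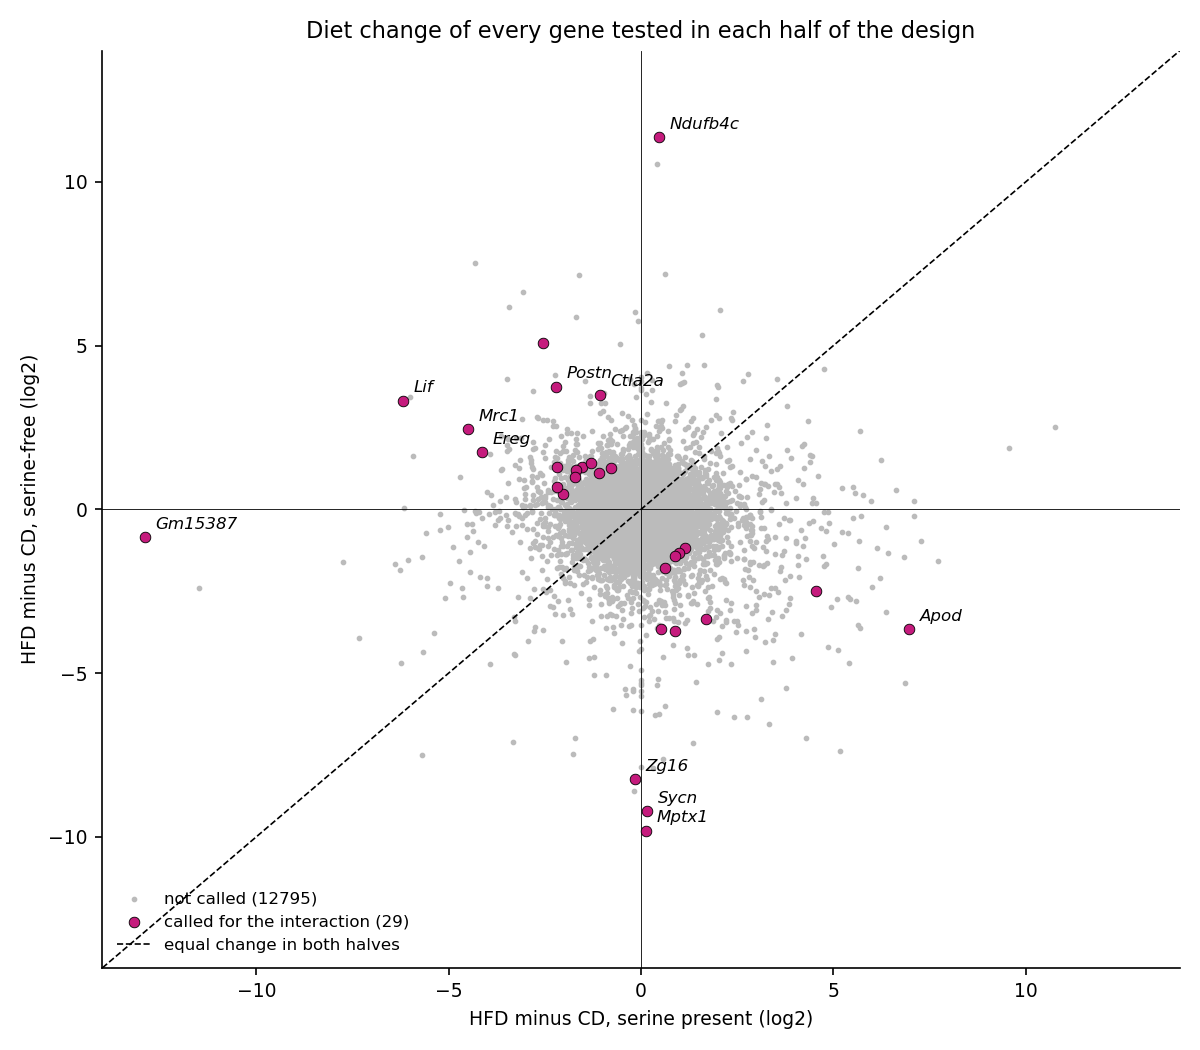
Each point is 1 of the 12824 genes tested; the x axis is HFD minus CD with serine and the y axis the same difference on the serine-free diets, both in log2. The 29 called genes lie away from the dashed line of equal change, as a call on that difference requires. Postn is at -2.20 and 3.75, and Mptx1 at 0.13 and -9.82.

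Of the 17 negative genes, 15 had differences of opposite sign in the 2 arms, as had 10 of the 11 named positive ones. The genes were called on the difference between the arms, which favours opposite signs. The share of opposite signs over all genes was not counted, so this describes the called genes only. For the positive genes, the serine-free arm alone passed for 9 and the serine-present arm for 0. For the negative genes, 5 passed in the serine-free arm, 3 in the serine-present arm and 9 in neither, so those 9 were called for the difference between arms only. Over 4634 genes at a mean log2 CPM (counts scaled to library size) of at least 4, the SD of the diet difference was 0.53 with serine and 0.565 without.

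Ctla2a, an inhibitor of cysteine proteases, stood at 3.72 ± 2.45 CPM (SD, n = 3) in CD and 1.64 ± 1.12 (n = 5) in HFD. It was 2.07 ± 1.26 in serine-free CD and 20.05 ± 4.17 in serine-free HFD. The interaction was -4.57 ± 0.80 on the log2 scale (SE; adjusted p = 0.0106), and without CD replicate 2 the adjusted p was 0.0749. Postn, a matricellular protein of fibroblasts, had 7.06, 5.79, 5.32, 6.23 and 4.26 CPM in serine-free HFD and 0 to 1.62 in all other libraries. Every serine-free HFD library stood above every library of the other 3 groups. Its interaction was -5.95 (adjusted p = 0.035). Postn was called in 11 of the 18 fits that left out 1 library, and Ctla2a in 17.

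Both genes rose with HFD on the serine-free diet, and markers of mesenchymal cells moved with them. The 20 listed fibroblast markers summed to 147 to 232 CPM in serine-free HFD, 25.1 to 152 in serine-free CD, 5.61 to 14.96 in CD and 6.63 to 20.2 in HFD. The 13 smooth muscle and pericyte markers summed to 134 to 182 CPM in serine-free HFD and 1.34 to 22.8 in the other libraries. No marker of either list was at 0 in all 18 libraries, and their part in the result was not tested. Of the 15 fibroblast markers tested, 13 had a negative interaction (median -2.03, against 0.09 over all genes) and only Postn was called. Of 15 tested epithelial markers, 13 were negative too (median -0.75, 0 called), so the direction was not particular to mesenchymal markers. In bulk RNA, fewer cells of a type and less RNA per cell cannot be told apart.

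**Figure D2:**
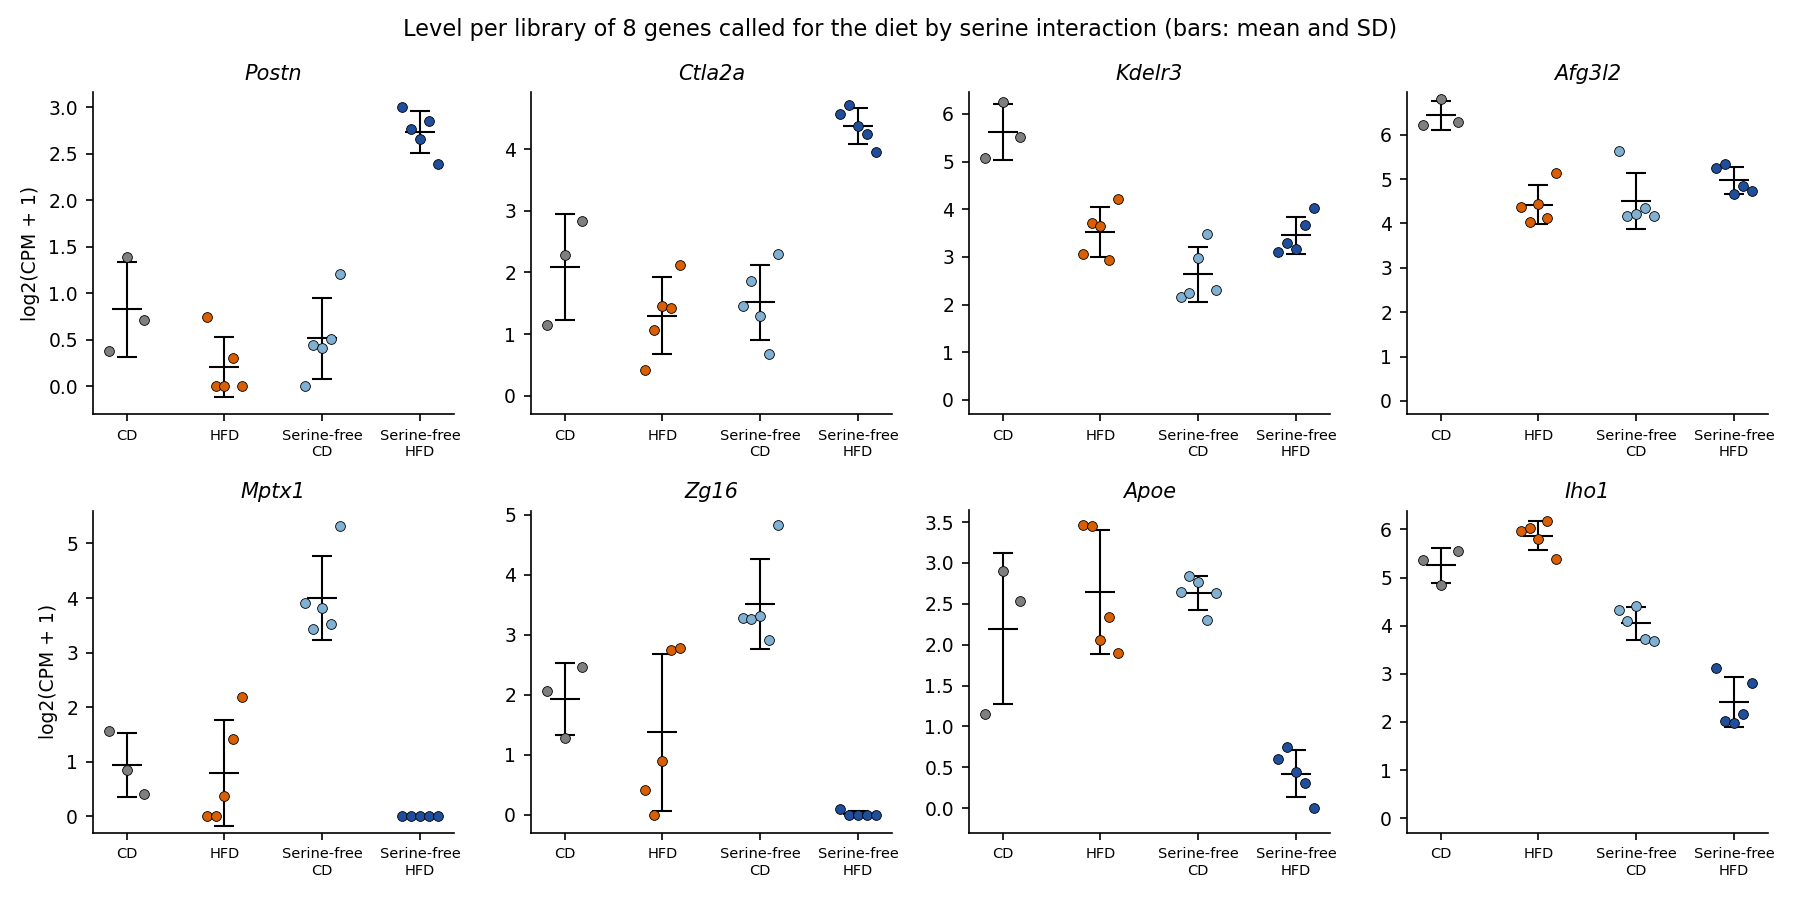
Points are libraries, the y axis is log2(CPM + 1), and bars give the mean and SD of each of the 4 groups. Postn and Ctla2a are high in serine-free HFD, Kdelr3 and Afg3l2 in CD, and Mptx1 and Zg16 are at or next to 0 in the 5 serine-free HFD libraries.

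Kdelr3 and Afg3l2, both negative, were highest in CD. Kdelr3, a receptor that returns proteins to the endoplasmic reticulum, had 32.8, 75.1 and 45.0 CPM in CD against 6.71 to 17.7 in HFD. On the serine-free diets it had 3.49 to 10.2 CPM in CD and 7.65 to 15.3 in HFD. The groups with serine did not overlap, which held for 12.4% of all genes, and those without did. The interaction was -2.89 ± 0.56 (adjusted p = 0.0289), and HFD minus CD with serine was -2.19 (adjusted p = 0.0405).

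Afg3l2, a protease subunit of the inner mitochondrial membrane, stood at 87.2 ± 21.2 CPM in CD and 21.3 ± 7.59 in HFD, against 23.97 ± 13.9 and 30.9 ± 7.09 on the serine-free diets. Its interaction was -2.48 (adjusted p = 0.0292). Aldh2, the mitochondrial aldehyde dehydrogenase, stood at 25.9 ± 14.6 CPM in CD, 5.61 ± 3.56 in HFD, 31.2 ± 10.5 in serine-free CD and 76.3 ± 33.0 in serine-free HFD. The interaction of Aldh2 was -3.46 (adjusted p = 0.0235). Tmsb10, an actin-binding peptide and the most abundant gene called, had 1847 ± 648, 1082 ± 112, 711 ± 198 and 1717 ± 553 CPM in the same order (interaction -2.04, adjusted p = 0.0385). Tmsb10 was added after its values were seen. Of the 18 fits that left out 1 library, Aldh2 was called in 14, Kdelr3 in 13, Afg3l2 in 12 and Tmsb10 in 11.

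The signalling genes were low and uneven. Ereg, a ligand of the epidermal growth factor receptor, had 12.3, 10.3 and 1.93 CPM in CD and 0 to 1.11 in HFD (interaction -5.86, adjusted p = 0.0469). Mrc1, the macrophage mannose receptor, had 18.5 and 16.6 CPM in CD replicates 1 and 2 but 0.642 in CD replicate 3 (interaction -6.94, adjusted p = 0.0494). The same 2 CD libraries were low in Xist, and what else set them apart was not tested. Lif, a cytokine of the interleukin 6 family, had 21 counts over CD and 0 over HFD, at least 8.84-fold lower in HFD taking 3 counts in the whole group as the floor (interaction -9.50, adjusted p = 0.035); it was chosen after its values were seen. When each library was left out in turn, Ereg was called in 5 of 18 fits, Mrc1 in 4 and Lif in 9.

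Other negative genes were Cd82, a tetraspanin (-2.89), Antxr2, an anthrax toxin receptor (-2.82), Shroom3, an actin regulator (-2.71), Plekha8, a lipid transfer protein (-2.69), and Fbxl5, an iron-sensing ubiquitin ligase subunit (-2.21). Their adjusted p-values were 0.049955, 0.049955, 0.0481, 0.0289 and 0.0494. Each of the 5 lost its call when any 1 of 5 or more libraries was left out.

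Several positive genes encode products of secretory cells. Mptx1, a pentraxin on the Paneth list, had 9.82 to 39.2 CPM in serine-free CD and 0 counts in all 5 serine-free HFD libraries. That is at least 182-fold lower in serine-free HFD taking 3 counts in the whole group as the floor. With serine it had 0.321 to 1.97 CPM in CD and 0 to 3.58 in HFD, which overlapped. The interaction was 9.95 ± 1.60 (adjusted p = 0.0106), a fitted value that depends on the prior count.

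Zg16, a lectin of goblet cells, had 6.52 to 27.4 CPM in serine-free CD and 1 count over the 5 serine-free HFD libraries. The ratio of pooled CPM was 387 (exact 95% interval 68.9 to 15332, counting error only), and the interaction was 8.09 ± 1.41 (adjusted p = 0.0106). Sycn, syncollin, a protein of secretory granules, had 4.95 to 24.8 CPM in serine-free CD and 0 counts in serine-free HFD (interaction 9.38, adjusted p = 0.0289). Muc2, the main secreted mucin of goblet cells, showed 94 counts against 1 in the same pair of groups but was not called (interaction 6.64, adjusted p = 0.0864). The goblet list as a whole did not go 1 way: of 17 tested markers, 8 had a positive and 9 a negative interaction, and Zg16 alone was called. With serine, Zg16, Sycn and Muc2 had group means of 0.259 to 3.03 CPM on both diets.

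Apoe, the lipid carrier, had 3.92 to 6.18 CPM in serine-free CD and 0 to 0.681 in serine-free HFD, with no overlap (which held for 3.44% of all genes), against 1.22 to 6.48 in CD and 2.74 to 10.1 in HFD. Its interaction was 4.17 ± 0.88 (adjusted p = 0.0444). Apod, a lipid carrier of the lipocalin family, had 0 counts in CD and 44 over HFD, at least 11.6-fold higher in HFD against the same floor (interaction 10.63, adjusted p = 0.0106); it was chosen after its values were seen, as was Gm11562 (interaction 7.04, adjusted p = 0.0494). Iho1, a gene known from meiosis, had 37.9 ± 9.27 CPM in CD, 58.5 ± 11.6 in HFD, 15.9 ± 3.86 in serine-free CD and 4.63 ± 2.12 in serine-free HFD (interaction 2.43, adjusted p = 0.035). Ly6g6c, of the Ly6 family, had an interaction of 5.03 (adjusted p = 0.0289). The noncoding or unclassified transcripts B930036N10Rik, 1700120C14Rik and Gm37760 lay between 2.32 and 2.33 (log2) with adjusted p-values of 0.0444 to 0.0494. When each library was left out in turn, Mptx1 was called in 17 of 18 fits, Zg16 and Apod in 16, Sycn in 14, Ly6g6c in 13 and Iho1 in 9. Gm37760 was called in 6, 1700120C14Rik in 5, Apoe and B930036N10Rik in 4 and Gm11562 in 3.

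The pair with the most negative interaction were processed pseudogenes, intronless copies of expressed genes, so their sequences are shown to compare them with their parents. Both stretches run from base 1 to base 60 of the pseudogene transcript, with the parent's bases at the same place, and capitals mark a base that differs.
Ndufb4c: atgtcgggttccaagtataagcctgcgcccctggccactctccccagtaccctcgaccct
Ndufb4: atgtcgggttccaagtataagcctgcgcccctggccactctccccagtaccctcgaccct
Gm15387: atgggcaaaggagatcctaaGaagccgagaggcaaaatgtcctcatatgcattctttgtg
Hmgb1: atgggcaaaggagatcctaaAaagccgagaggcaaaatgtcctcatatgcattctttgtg
The 390 bases of Ndufb4c, a copy of a subunit gene of respiratory complex I, are all found in Ndufb4, with 0 bases that differ. Gm15387 (648 bases) differs from Hmgb1, a chromatin protein gene, at 1 base, G21A, counted from 1 at the 5′ end of the transcript with the pseudogene's base first. Another copy, Gm21596, holds all 618 of its 31-base words.

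Ndufb4c (mm10 chr15:73809507-73809896) had 0 counts in all 5 serine-free CD libraries and 29.6 to 95.2 CPM in the other 13, an interaction of -10.89 (adjusted p = 1.57e-08). Summed with Ndufb4, the level was 372 ± 160 CPM in serine-free CD and 345 ± 107 in serine-free HFD, against 686 ± 78.6 in CD and 888 ± 58.9 in HFD. Gm15387 (chr15:74093686-74094333) had 63.2 to 215 CPM in CD and 0 counts in all 5 HFD libraries, an interaction of -12.05 (adjusted p = 0.0106). Summed over the 18 genes sharing most of its words, the level was 2170 ± 258 CPM in CD and 2896 ± 448 in HFD. The pseudogene counts and the sums therefore did not move alike, and reads from identical stretches cannot be assigned to 1 copy.

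Genes of ceramide and serine metabolism had no call in the 18 libraries. Of 15 tested ceramide synthesis genes, 20 of ceramide turnover and 20 of serine and one-carbon metabolism, 0 passed, against 0.226% of all genes. The medians were 0.16, -0.01 and 0.30, against 0.09 over all genes. Sptlc1 and Sptlc2, the subunits of serine palmitoyltransferase, had interactions of -0.18 ± 0.52 and -0.34 ± 0.43 (SE), and Cers6, a ceramide synthase, 1.08 ± 0.62. Phgdh had 316 ± 40.0 CPM in CD and 308 ± 32.8 in HFD, and 120 ± 52.2 and 112 ± 42.4 on the serine-free diets, with an interaction of 0.07 ± 0.48 that turned to between -0.17 and -0.02 in 7 fits without 1 library. Psat1 was at 0.29 ± 0.46, and Shmt2, the mitochondrial serine hydroxymethyltransferase, at 0.37 ± 0.56. Missing the threshold does not show that these genes did not differ.

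Stem cell, regeneration and fat oxidation genes were not called in the 18 libraries either, with 1 exception. Ereg was the 1 called gene of 33 tested regeneration and fetal genes, whose median was -0.55. Of 18 crypt-base stem cell genes and 25 of fat oxidation, 0 passed. Only 0.226% of all genes were called, so 0 calls in lists of this size is near that share and says little about them. Lgr5, the crypt-base stem cell receptor, had 2.85 ± 1.10 CPM in CD, 9.59 ± 8.95 in HFD, 35.7 ± 32.2 in serine-free CD and 5.002 ± 3.97 in serine-free HFD (interaction 4.46, adjusted p = 0.136). Clu was at 2.07 ± 0.94, Ly6a at -0.81 ± 0.47 and Cpt1a at 0.99 ± 0.63, and none passed.

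Without the 3 libraries under 1000000 counts, 587 of 12653 genes were called (4.64%), 340 positive (2.69%) and 247 negative (1.95%). This fit was a listed alternative and its lists are described here because more members passed. Of the 29 genes above 28 were among the 587, and 570 of the 585 tested in both fits had the same sign in the 18 libraries. The 15 libraries are part of the 18, so such agreement was to be expected and is no independent support. Leaving out 1 more library gave 177 (CD replicate 2) to 928 (serine-free HFD replicate 1) calls. Positive genes had a median exon length of 3023 bases and negative ones 5091, against 4124 over all genes tested. In these 15 libraries, ribosomal RNA took 1.66% to 2.68% of counts in CD, 0.562% to 1.03% in HFD, 2.08% to 2.40% in serine-free CD and 3.59% to 7.19% in serine-free HFD. Protein-coding genes at a mean log2 CPM of at least 4 were put in 5 bins of exon length, with 887 to 889 genes in each. The median interaction was 0.31 in the bin of the shortest genes and -0.25 in that of the longest, with 77 and 22 positive calls and 16 and 54 negative ones. The part of exon length and ribosomal RNA in the calls was not tested.

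Cell cycle genes were called on the positive side only in these 15 libraries: 9 of 36 tested members of the proliferation list passed and 0 were called negative, against 2.69% of all genes called positive. The list's median was 0.79 (all genes -0.08), with 31 members above 0. In the 18 libraries 0 were called, with 32 above 0 and a median of 0.66. Medians were 0.34 for HFD minus CD with serine and -0.52 without it. The 9 had a median exon length of 4097 bases. Calls were 9 and 10 under the other scalings and 6 to 12 when 1 library was left out, lowest without CD replicate 2.

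Rrm2, a subunit of ribonucleotide reductase, had 86.7, 99.0 and 109 CPM as the lowest, median and highest value in CD, and 165, 248 and 256 in HFD. On the serine-free diets it had 78.0, 161 and 161 in CD and 60.5, 77.8 and 88.2 in HFD. HFD lay above CD with serine without overlap, and the serine-free ranges overlapped. The share of all genes without overlap was not counted in these 15 libraries, so this is a description only. The interaction was 2.06 ± 0.33 (adjusted p = 0.00398). Gins2, of the replicative helicase, was at 2.13 ± 0.36 (adjusted p = 0.00443).

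The called mitotic genes were positive, while Cenpe and Foxm1, a mitotic motor and a mitotic transcription factor, were at -0.55 and -0.30 and not called. Ccnb1, cyclin B1, ranged from 158 to 191 CPM in CD and 213 to 361 in HFD. It ranged from 193 to 292 in serine-free CD and 107 to 178 in serine-free HFD (interaction 1.69 ± 0.31, adjusted p = 0.00764). The order was opposite in the 2 arms, which a call on their difference favours. Aurka, a mitotic kinase, was at 1.60 and Cdk1, the mitotic cyclin-dependent kinase, at 1.302. Birc5, survivin, was at 1.61, Bub1, of the spindle checkpoint, at 1.43, Tyms, thymidylate synthase, at 1.32 and Pcna, the replication clamp, at 0.94. Rrm2, Gins2, Ccnb1, Aurka, Cdk1 and Birc5 kept their calls in all 15 fits that left out 1 library, while Bub1 kept it in 4 and Pcna in 5. Mki67, the usual proliferation marker, and Top2a did not pass, at -0.33 and 0.46.

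**Figure D3:**
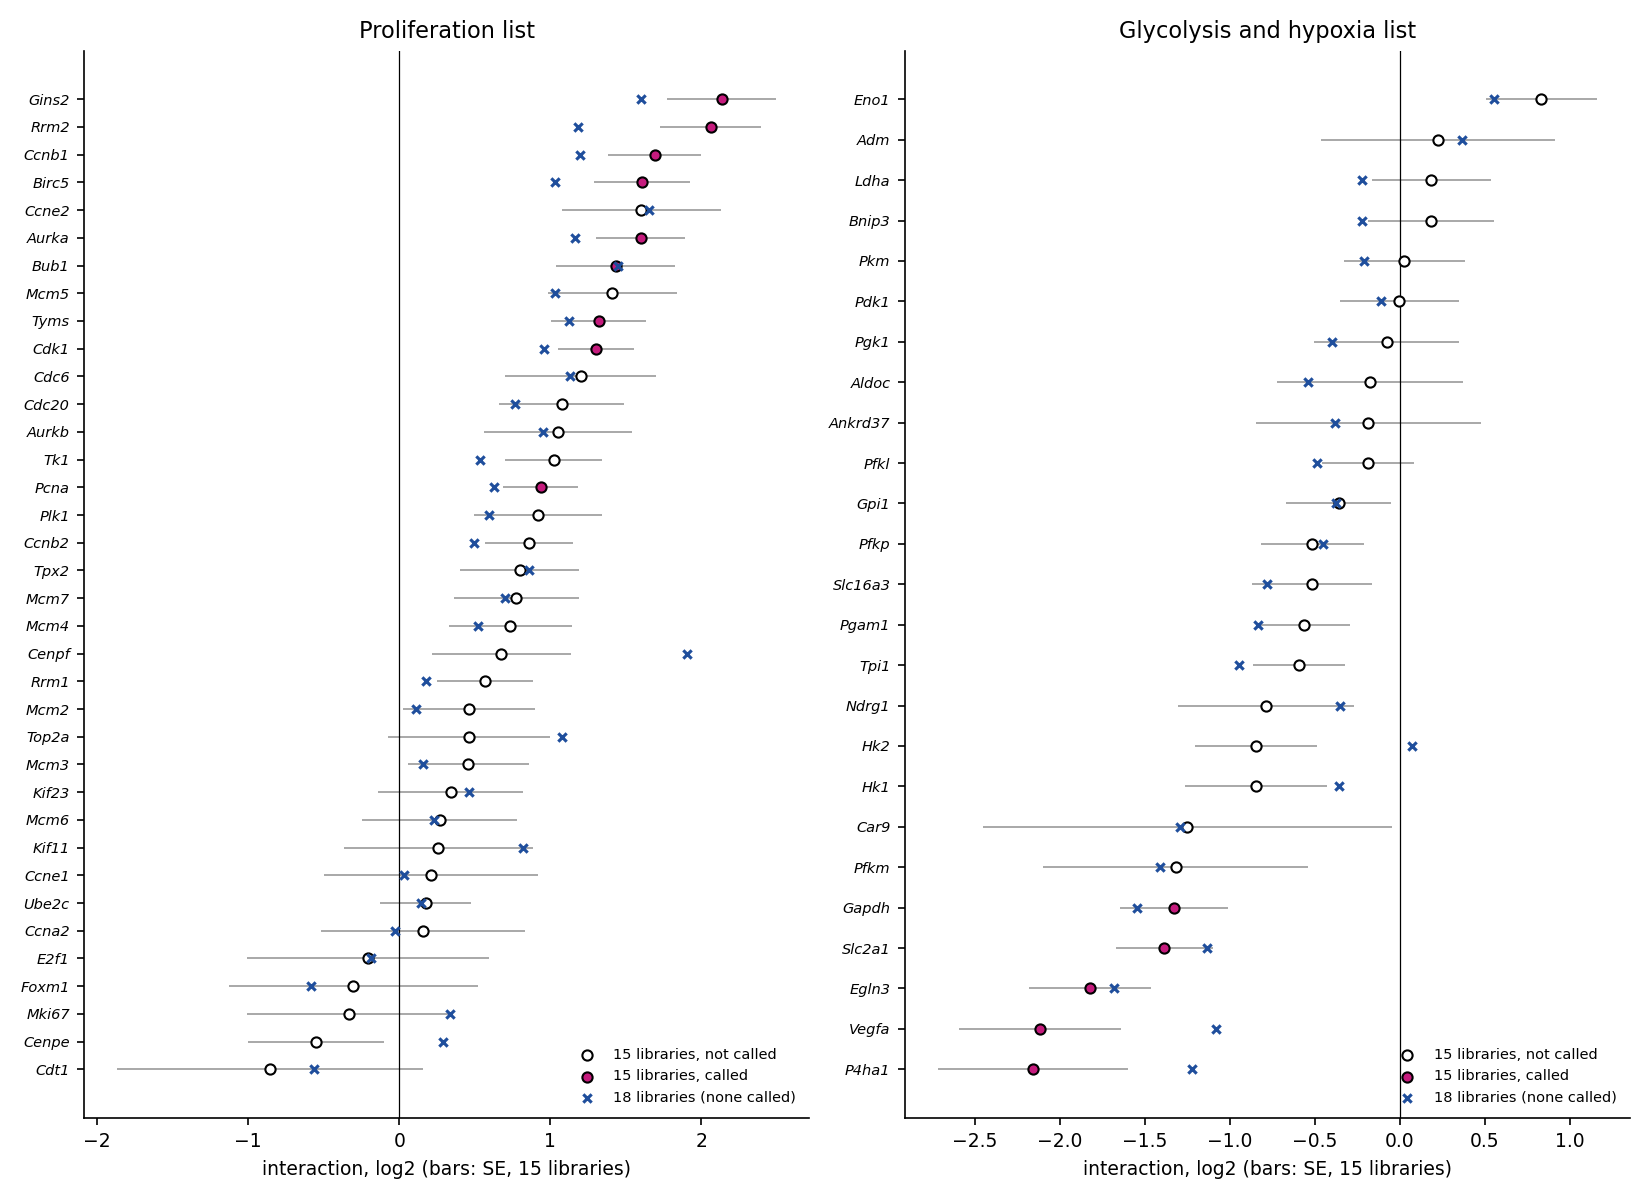
Each row is a gene, and the x axis is its interaction in log2, with circles and SE bars from 15 libraries (filled where called) and crosses from all 18. Of the proliferation genes, 9 of 36 are called, all above 0, and of the glycolysis and hypoxia genes 5 of 25, all below 0, while no cross is called.

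Glycolysis and hypoxia genes went the other way: 5 of 25 tested members were called negative and 0 positive (all genes 1.95% negative), with a median of -0.51. In the 18 libraries 22 of 25 were below 0 and 0 were called. The list's median was -0.52 for HFD minus CD with serine and 0.01 without it. Counts were 5 under both other scalings and 1 without serine-free CD replicate 2.

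Egln3, an oxygen-sensing prolyl hydroxylase, had 48.9, 70.2 and 77.5 CPM as the lowest, median and highest value in CD and 24.1, 32.3 and 44.6 in HFD. On the serine-free diets the values were 38.6, 44.8 and 46.6 in CD and 47.0, 81.9 and 91.5 in HFD. The order was opposite in the 2 arms, which a call on their difference favours (interaction -1.82 ± 0.36, adjusted p = 0.0105). Vegfa, the vascular growth factor, had 63.1 to 69.6 CPM in CD and 10.2 to 29.9 in HFD, and 16.2 to 30.3 and 20.2 to 40.4 on the serine-free diets (interaction -2.11, adjusted p = 0.0187).

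Slc2a1, the glucose transporter GLUT1, was at -1.38 (adjusted p = 0.013), P4ha1, a collagen prolyl hydroxylase, at -2.16 (adjusted p = 0.0364) and Gapdh at -1.33 (adjusted p = 0.0248). With serine, Gapdh ranged from 9848 to 13182 CPM in CD and from 3829 to 7208 in HFD, a fall of its own in that arm (log2 -1.07, adjusted p = 0.0244). Eno1, enolase, was at 0.83 and Ldha, lactate dehydrogenase, at 0.19, and neither was called; Ldha was at -0.22 in the 18 libraries. The called members' median exon length was 4114 bases. Of the 15 fits that left out 1 library, Egln3 kept its call in 15, Slc2a1 in 14, Vegfa in 13, Gapdh in 11 and P4ha1 in 5.

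Promoters of these genes are shown because the called members of both lists moved in opposite directions. The windows are RefSeq's (GRCm38.p6), 250 bases before to 50 after the start, with matches in capitals: ACGTG for Egln3 and P4ha1, the core of the element bound by hypoxia-inducible factors, and CCAAT for Rrm2 and Ccnb1, the box bound by NF-Y, both read on either strand.
Egln3, chr12:54203825-54204124, minus strand: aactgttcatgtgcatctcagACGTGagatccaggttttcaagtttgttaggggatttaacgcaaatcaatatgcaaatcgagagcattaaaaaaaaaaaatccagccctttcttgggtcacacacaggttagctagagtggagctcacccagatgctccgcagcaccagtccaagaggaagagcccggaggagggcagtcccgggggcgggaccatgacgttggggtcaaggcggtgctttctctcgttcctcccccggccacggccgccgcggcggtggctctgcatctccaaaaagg
P4ha1, chr10:59323046-59323345, plus strand: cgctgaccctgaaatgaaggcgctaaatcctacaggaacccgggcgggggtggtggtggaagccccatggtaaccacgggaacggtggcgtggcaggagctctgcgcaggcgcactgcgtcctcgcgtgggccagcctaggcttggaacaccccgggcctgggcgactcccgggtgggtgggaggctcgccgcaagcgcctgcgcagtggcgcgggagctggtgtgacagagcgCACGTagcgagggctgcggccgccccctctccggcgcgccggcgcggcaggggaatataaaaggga
Rrm2, chr12:24708004-24708303, plus strand: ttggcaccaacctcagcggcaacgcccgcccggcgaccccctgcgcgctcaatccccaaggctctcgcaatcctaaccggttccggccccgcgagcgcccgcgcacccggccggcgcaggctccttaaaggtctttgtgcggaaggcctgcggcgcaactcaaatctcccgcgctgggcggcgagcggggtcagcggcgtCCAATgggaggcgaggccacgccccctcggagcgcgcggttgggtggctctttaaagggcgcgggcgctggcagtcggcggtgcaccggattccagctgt
Ccnb1, chr13:100786437-100786736, minus strand: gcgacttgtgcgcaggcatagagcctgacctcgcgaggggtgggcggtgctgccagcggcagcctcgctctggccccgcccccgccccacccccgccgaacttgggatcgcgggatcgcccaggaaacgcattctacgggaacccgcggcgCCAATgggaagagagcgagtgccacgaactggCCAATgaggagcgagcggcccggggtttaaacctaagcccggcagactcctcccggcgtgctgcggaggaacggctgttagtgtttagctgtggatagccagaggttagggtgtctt
ACGTG was found in windows of 5 of 5 called glycolysis and hypoxia genes (for Vegfa in 1 of 2 windows). It was found in 3 of the 8 called proliferation genes that have a window (Gins2 had no window and was not searched). Of all 32851 windows 19.6% held it, or 21.8% of the 27025 genes in any of their windows. CCAAT was found in 2 of 5 and 6 of 8, against 37.4% of windows and 41.1% of genes. Of the other motifs searched, TTTGAA was found in 2 of 5 and 2 of 8 (17.9% of windows and 20.2% of genes), TATAAA in 2 of 5 and 0 of 8 (13.6% and 15.7%) and TTCCCGC in 0 of either (4.6% and 5.3%). The motifs were picked after the calls were known, and a match is a description of the letters, not a site.

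NF-kB and chemokine genes were below 0 in all 20 tested members in the 15 libraries (median -1.998, against -0.08 over all genes), of which 3 were called, all negative as were 1.95% of all genes: Tnf at -4.43, Nfkbia, the inhibitor of NF-kB, at -2.03, and Duoxa2, a dual oxidase maturation factor, at -6.61. In the 18 libraries 17 of 19 were below 0, with a median of -1.18 and 0 called, and Nfkbia was at 0.09 there, with serine-free CD replicate 1 at 647 CPM. Without CD replicate 2, 0 of the list were called in the 15 libraries. Duoxa2 had only 1.15 to 3.25 CPM in CD and 0 to 0.206 in HFD, so the size of its value rests on few counts. It was not among the genes tested in the 18 libraries. Of immediate early genes, Fosl1 and Fosl2, subunits of the AP-1 factor, were called at -2.42 and -1.64.

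Called members of the other lists were few. Acat2 and Nsdhl of cholesterol synthesis were positive (1.47 and 1.1695), as were the endoplasmic reticulum proteins Manf and Pdia6 (1.40 and 0.995), the tRNA synthetase genes Farsb and Hars (1.24 and 0.93), Atp5g1 of ATP synthase (1.15), Anxa1 of the regeneration and fetal list (1.26) and Kyat3 of tryptophan metabolism (2.22). Their lists did not all go that way. The list of Manf and Pdia6 had 9 positive and 11 negative members (median -0.27). The regeneration and fetal list had 10 and 23, and the tryptophan list 1 and 9. Positive members were more frequent in the cholesterol (19 and 6), tRNA synthetase (12 and 8) and respiratory chain (22 and 8) lists. The epithelial genes Cldn7 and Epcam were called negative (-1.60 and -1.05), and 14 of the 15 tested epithelial genes were below 0. Txnrd1, thioredoxin reductase (-1.63), H2-K1, a class I histocompatibility gene (-1.10), and Ido1 (-9.70) were called negative too. So was Sytl2 of the goblet list (-4.61), of which 8 tested members were positive and 9 negative. The mesenchymal genes Acta2 and Col1a2 were at -3.83 and -2.59, Muc2, Hs3st3b1 and Fetub at 6.73, 6.02 and 9.03, and Lyz2, a lysozyme of macrophages, at 4.19. Lyz2 and Mrc1 (-7.09), both of the macrophage and dendritic list, were called in opposite directions. Of the 6 tested members of that list, 3 were positive and 3 negative. Lyz2 was also on the Paneth list, of which 4 tested members were positive and 2 negative. Lyz2, Mptx1 and Sycn were the 3 called there, all positive, as were 2.69% of all genes. Cxcr2, a chemokine receptor, was at 1.75, while 4 of the 5 tested neutrophil and mast cell genes were below 0. The regeneration and fetal list thus had 1 call in each direction, Anxa1 and Ereg (-5.59), and Tyms was also the 1 called gene of 20 tested in the serine and one-carbon list. Several of these calls rest on few libraries. When 1 of the 15 libraries was left out, Acat2, Cldn7 and Cxcr2 kept the call in all 15 fits, but Muc2 and Hs3st3b1 kept it in 7, Kyat3 in 6, Atp5g1 in 5, Hars, Epcam and Ido1 in 4 and Farsb, Anxa1 and Fetub in 3. Ido1 had 215 CPM in serine-free HFD replicate 4 and 3.50 to 18.2 in the other 3 libraries of that group, kept its call without that library, and had an adjusted p of 0.214 with limma-voom. Fetub and Hs3st3b1 had 59.9 and 42.4 CPM in serine-free CD replicate 4, against 4.49 to 5.75 and 3.88 to 5.75 in the other 2 libraries, and neither was called without it; with limma-voom the adjusted p of Fetub was 0.115. In these libraries, 0 members were called in the lists of ceramide synthesis, ceramide turnover, ATF4 targets, crypt-base stem cells, Wnt targets, fat oxidation, fatty acid synthesis, interferon, YAP targets and p53 targets. Each of these lists had 14 to 24 tested members, and 4.64% of all genes were called, so 0 in any 1 of them says little.

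**Figure D4:**
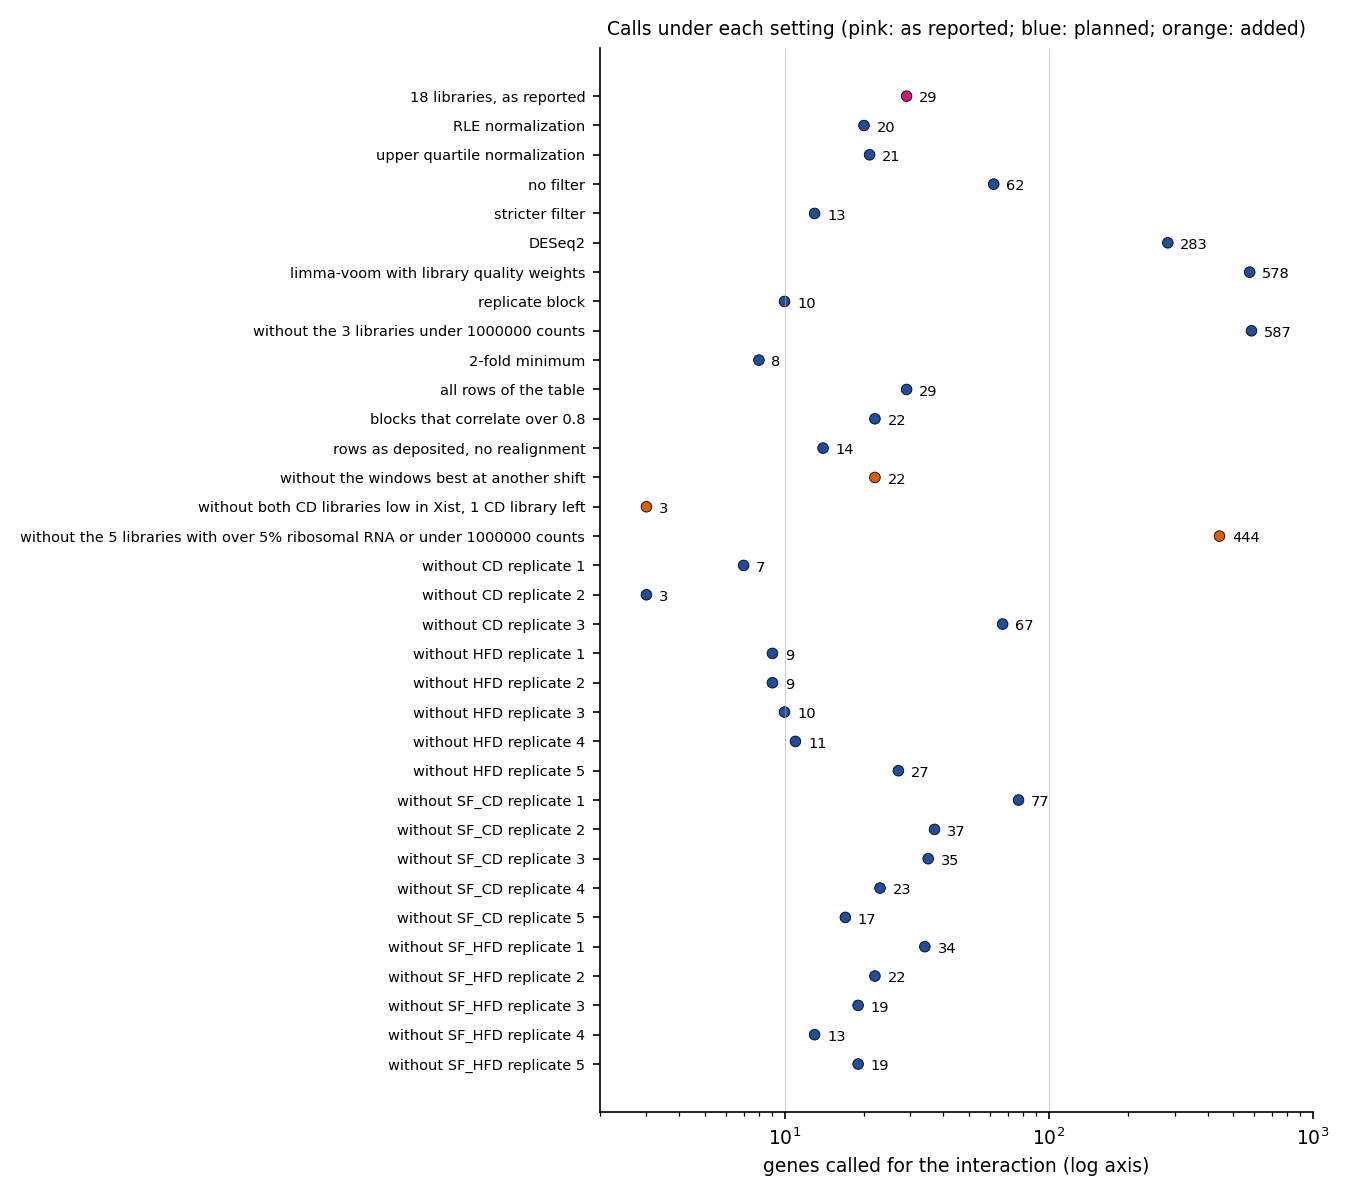
The x axis, on a log scale, is the number of genes called for the interaction under each setting named on the y axis (SF, serine-free), with the 18 libraries as reported at 29. Leaving out CD replicate 2 gives 3, and leaving out the 3 shallow libraries gives 587.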

How the data were processed

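Poly(A)-selected, strand-specific libraries were prepared from organoid RNA, as the protocols in the labels describe. One table of estimated counts was deposited, in whole numbers; the submitters' processing notes name Salmon 1.3.0 and the build mm10. No source used here gives its annotation release or how transcripts were summed to genes. The 8 serine-present columns were put in order of lower-case gene name, gene name and row name, missing names last, and the i-th value given to the i-th gene; this order was checked on summed counts, never on the diet contrasts. A named gene lies in a block of 500 rows with r above 0.5 and has a symbol of its own.

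Counts were fitted with edgeR 4.0.16 in R 4.3.3 (quasi-likelihood, robust, TMM scaling, filterByExpr, 1 mean per group, all 18 libraries), with Benjamini-Hochberg adjustment over all 12824 genes. CPM uses TMM-scaled library sizes of the fit named, so it differs slightly between the 18 and 15 libraries. Genes named are the called ones at a mean log2 CPM of at least 1 (up to 12 a side), up to 3 called members or the most abundant one of each of 40 lists, and a fixed set; in the 15 libraries, all called list members. Of the 90 genes the rule took, uncalled ones with little to show stand only in the closing section, a choice made after their values were seen; 2 genes of the rule are not reported here, though the counts of calls include them where they passed. Members and lists were chosen with earlier results of these data known; the list holding Mptx1, Sycn, Zg16, Muc2, Postn, Acta2, Ido1, Ctla2a and Ndufb4c was taken from a description of these libraries and is no independent support.

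The test was tested on simulated data with 200 changed genes: for the interaction in 18 libraries (12434 genes) it recovered 0% of 2-fold and 15% of 4-fold changes, and in 15 libraries (12175 genes) 0% and 31%. Changed genes had a mean count above 20, and 2 and 0 unchanged genes were called. Each simulated gene had 1 spread for all groups, whereas the real serine-free CD libraries varied more than the others. The shares recovered therefore need not hold for the real data. Alternatives used DESeq2 1.42.0 and limma 3.58.1. Intervals and floors cover counting error only. Replicate numbers did not pair the libraries.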

Additional observations from a re-analysis of the deposited data

Results flagged for a closer look

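Among 88 genes and 3 groups of 5 libraries, 38 of 264 sets held a value flagged as far from the other 4 (14.4%). Chance gives about 1 in 20 only for evenly measured, normally spread values. Low counts are not such values: Zg16, Muc2 and Fcer1g were flagged in serine-free HFD on 1 count over the group. The share of flags is therefore no measure of aberrant libraries. CD, with 3 libraries, was not checked. The values, all in CPM, follow by library. HFD replicate 3 stood apart for Ly6g6c at 26.6, B930036N10Rik at 48.6 and Cd82 at 54.7. Serine-free HFD replicate 4 was far from its group for Antxr2 at 42.7 and Fcer1g at 0.0587. HFD replicate 5 stood apart for Afg3l2 at 34.3, Sycn at 3.997, Pecam1 at 30.7, Itga4 at 0.421 and Igfbp5 at 0.842. Serine-free CD replicate 1 was far from its group for Afg3l2 at 48.8, Cd44 at 848, Ccnd2 at 1519, Nfkbia at 647 and Pecam1 at 24.4. Serine-free CD replicate 3 stood apart for Nupr1 at 3102. Serine-free HFD replicate 2 was far from its group for Top2a at 475, Ucp2 at 127 and Cers6 at 36.4. HFD replicate 2 stood apart for Fdps at 961, Ido1 at 1.11 and Hdc at 0.369. Serine-free CD replicate 5 was far from its group for Zg16 at 27.4, Mptx1 at 39.2, Sycn at 24.8 and Fcer1g at 3.92. Serine-free HFD replicate 1 stood apart for Zg16 at 0.0743, Muc2 at 0.0743 and Ceacam10 at 1.04. Serine-free CD replicate 2 was far from its group for Mrc1 at 1.82 and Ido1 at 1.91. Serine-free HFD replicate 3 stood apart for Sdc1 at 113, Igf1 at 6.83 and Itga4 at 0.503. Serine-free HFD replicate 5 was far from its group for Psat1 at 150 and Hdc at 0.853. HFD replicate 1 stood apart for Igf1 at 15.4. HFD replicate 4 was far from its group for Fcer1g at 2.16.

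The diet difference differed between the serine-present and serine-free arms for the 27 genes given here, by the interaction term of edgeR's quasi-likelihood test in log2. The negative ones were Afg3l2 -2.48, Aldh2 -3.46, Antxr2 -2.82, Cd82 -2.89, Ctla2a -4.57, Ereg -5.86, Fbxl5 -2.21, Gm15387 -12.05, Kdelr3 -2.89, Lif -9.50, Mrc1 -6.94, Ndufb4c -10.89, Plekha8 -2.69, Postn -5.95, Shroom3 -2.71 and Tmsb10 -2.04. The positive ones were 1700120C14Rik 2.32, Apod 10.63, Apoe 4.17, B930036N10Rik 2.33, Gm11562 7.04, Gm37760 2.32, Iho1 2.43, Ly6g6c 5.03, Mptx1 9.95, Sycn 9.38 and Zg16 8.09.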

How the results depend on the processing

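Calls for the interaction (29), HFD minus CD (4) and serine-free HFD minus serine-free CD (128) moved as follows, in that order. They were 62, 13 and 239 with no filter, 283, 55 and 720 with DESeq2, 578, 257 and 248 with limma-voom and quality weights, and 8, 1 and 19 with a 2-fold minimum. A stricter filter gave 13 and 53 for the first and last. Without the 3 libraries under 1000000 counts the first 2 were 587 and 160. Rows as deposited gave 14 for the interaction, and fits of only the libraries compared gave 452 and 38 for the arms. Leaving out 1 library gave 3 to 77, 1 to 20 and 17 to 345. Chosen after seeing the data, leaving out CD replicates 1 and 2 (1 CD library left, assumed to vary like the other groups) gave 3 and 1 for the first 2, and leaving out the 5 libraries with over 5% ribosomal RNA or under 1000000 counts gave 444 and 246. The cause was not tested. With the replicate number as a block the counts were 10, 0 and 37; over 24 same-numbered pairs, deviations correlated at -0.377 to 0.309 (3 above 0.1), so the numbers do not pair the libraries.

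In the 15 libraries (587), settings added after seeing the data gave 1226 with no filter, 1115 with DESeq2, 1327 with limma-voom, 241 with the replicate block, 10 with a 2-fold minimum and 177 to 928 without 1 library.

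The 28 named genes kept their sign in all 504 values without 1 library and all 383 under other settings, and lost the call in 213 and 103 of them. Of 62 uncalled genes, 17 changed sign in some fits without 1 library, over these log2 ranges: Asah1 -0.32 to 0.23, Bst2 -0.27 to 0.29, Ccnd2 -0.83 to 0.48, Cd44 -0.053 to 1.29, Cdkn1a -0.43 to 0.0381, Fdps -0.0414 to 0.46, H2-Ab1 -0.94 to 1.06, Hspa5 -0.44 to 0.0935, Ldha -0.49 to 0.00235, Msln -0.56 to 0.0861, Ndufa4 -0.43 to 0.0185, Nfkbia -1.62 to 0.42, Nupr1 -0.0377 to 0.65, Pecam1 -0.0948 to 1.299, Phgdh -0.17 to 0.22, Scd2 -0.14 to 0.29, Sptlc1 -0.43 to 0.00778. Under other settings, reversed values were as follows. With limma-voom: Asah1 0.18, Hspa5 0.00287, Cd44 -0.0965, Ccnd2 -0.12, Scd2 -0.00932, Nfkbia -1.49, H2-Ab1 1.18, Actb -0.0384. Without the 3 shallow libraries: Asah1 0.54, Cd44 -0.39, Ccnd2 -0.95, Scd2 -0.0485, Ldha 0.19, Ndufa4 0.16, Msln 0.17, Nfkbia -2.03, H2-Ab1 0.32, Pecam1 -0.47, Actb -0.60. Without CD replicates 1 and 2: Asah1 0.24, Phgdh -0.0816, Ldha 0.059, Ndufa4 0.25, Msln 0.75, H2-T23 -0.15, Trac 2.87, Sptlc1 0.30, Shmt2 -0.0437, Actg2 0.65. Without the 5 shallow or ribosomal-rich libraries: Asah1 0.41, Ccnd2 -1.17, Scd2 -0.0503, Ldha 0.0574, Ndufa4 0.0196, Msln 0.33, Nfkbia -2.03, H2-Ab1 1.296, Pecam1 -0.94, Actb -0.66. With upper quartile scaling: Bst2 -0.0218. With no filter: Bst2 -0.0273. With the replicate block: Bst2 -0.0118, Nfkbia -0.56, H2-Ab1 0.0626. Depth limits low genes most: 3 counts are 6.003 CPM in the shallowest library.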
